A study of Rattus norvegicus with 35 samples.

Results

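Established p53 target genes were examined in rat liver, namely Ccng1, Mdm2, Cdkn1a, Sesn1, Bax, Btg2 and Gadd45a. They were taken where a probe set (a group of array oligonucleotides read as 1 value) is annotated with that symbol alone. Of these 7 genes, 5 were measured in this way, among 13439 genes in all. Bax, for which the annotation used here gives a probe set only together with other symbols, and Btg2 were not analysed here. The levels below are deposited log2 signals, so a difference of 1 is a doubling, and a level is compared only between groups for the same probe set.

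The study measured liver RNA on 35 arrays and asked how simvastatin acts on livers with biliary cirrhosis that undergo bleeding. Hemorrhage followed by resuscitation is abbreviated H/R, and sham rats had the same procedure without it. Cirrhosis was produced by tying off and cutting the common bile duct, and these rats were sampled 4 weeks later. Simvastatin blocks HMG-CoA reductase, the rate-limiting step of cholesterol synthesis, and treated rats took 5 mg per kg by gavage each day, beginning 3 days before the final study and ending 1 h before it. The groups were ligated rats on simvastatin with H/R (simvastatin H/R, CBDLSH, n = 8) or sham (simvastatin sham, CBDLSS, n = 5), ligated rats without the drug with H/R (ligated H/R, CBDLpH, n = 6) or sham (ligated sham, CBDLpS, n = 5), and control rats without ligation with H/R (control H/R, CTROLH, n = 6) or sham (control sham, CTROLS, n = 5). All 24 ligated rats also received weekly vitamin K, per the labels. The labels do not say whether ligated rats without simvastatin were given vehicle, and they give no strain, sex or age.

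p53 is a transcription factor that is stabilised by DNA damage and other stresses and then switches on a set of target genes. Mdm2 closes a feedback loop, since its protein marks p53 for degradation. Among the other targets, Cdkn1a (p21) and Gadd45a restrain the cell cycle, Ccng1 (cyclin G1) feeds back on p53 through Mdm2, and Sesn1 (sestrin 1) links stress to redox control and the mTOR growth pathway. In liver, p21 is also known as a brake on hepatocyte regeneration. Several of these genes have p53-independent inputs as well, and p53 is controlled largely at the protein level, which arrays do not read.

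Array medians were 4.06 to 4.29 on the 24 ligated arrays, against 3.97 to 4.02 on the 11 control arrays, and the bioD minus bioB difference of the hybridisation controls was 3.43 to 3.93, against 3.11 to 3.29. Neither range overlapped, so these technical measures move with every ligation result below, and their part in those results was not tested. In every group 9 of 9 measured hepatocyte markers were above the brightest nonspecific probe. One array stood apart. Simvastatin sham replicate 1 had a GAPDH 3′ minus 5′ signal of 2.20, against -0.0042 to 0.34 on the other 34 arrays, and an actin 3′ minus 5′ signal of 4.30, against 1.41 to 2.34. Differences and counts that use this array are therefore given with and without it. The last digits of the number in each sample title, whose meaning the labels leave unsaid, divide the arrays further. All 11 control arrays share a title ending (13) that no ligated array without simvastatin has, so that ending and ligation cannot be told apart. The simvastatin sham and ligated sham arrays share no ending either. In bulk liver, fewer cells of a type and less RNA per cell cannot be told apart. Beyond its group and a title number nothing is said of each animal, so the p-values reflect the spread among these samples, part of which may be technical.

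Of the comparisons in which any of the 5 genes passed, H/R in control rats had the lowest background. Ccng1 and Mdm2 rose there, 2 of 5 genes, while 0.856% of all 13439 genes passed the threshold (limma, adjusted p under 0.05, either direction). The genes were chosen with earlier results of these data known, so neither this count nor those below test p53 targets as a set. The Mdm2 call was also lost in some of the alternative fits given below. After H/R in ligated rats 0 of 5 passed (background 0.134%), with 1 at an unadjusted p under 0.05. After H/R in ligated rats on simvastatin 0 of 5 passed, with 0 at an unadjusted p under 0.05, and both counts were 0 without simvastatin sham replicate 1 too. No gene at all passed in that comparison (0%), with or without that array, although 725 of 13439 had an unadjusted p under 0.05, or 490 without it. Of the 13439 genes, 1635 had such a p after H/R in control rats and 1401 in ligated rats. For simvastatin these were 1453 in sham livers, or 1665 without that array, and 1932 in H/R livers. Counts at an unadjusted p, here and below, are a description beside these numbers and not a result about a gene list. The control comparison and the ligated one have different sham arrays.

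Ligation changed 2 of 5 genes in sham rats, Sesn1 upward and Gadd45a downward, against a background of 47.6%. In H/R rats it lowered 3 of 5, Ccng1, Mdm2 and Gadd45a, against a background of 47%. With 5 genes measured, neither share stands apart from that of all genes, and neither is read as a result about p53 targets. Simvastatin changed 0 of 5 genes in ligated sham rats (background 0.781%), with 1 at an unadjusted p under 0.05. These were 0 of 5 (background 1.25%) and 2 without simvastatin sham replicate 1. It raised 1 of 5, Sesn1, in ligated H/R rats (background 1.35%). No gene of the 5 passed in the test of whether the H/R effect differed between ligated and control rats (background 0.00744%), nor in the test of whether it differed between ligated rats with and without simvastatin (background 0.00744%). In each of these tests 1 of the 5 had an unadjusted p under 0.05, and in the simvastatin one 0 passed and 2 had such a p without simvastatin sham replicate 1.

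The median difference of the 5 genes was 0.49 after H/R in control rats, 0.27 in ligated rats and -0.04 in simvastatin-treated rats, where the median of all genes was -0.01, -0.02 and -0.01. For ligation it was -0.17 in sham and -0.42 in H/R rats, with -0.04 and -0.03 over all genes. For simvastatin it was 0.16 in sham and -0.17 in H/R rats, with -0.01 and -0.0011 over all genes. Without simvastatin sham replicate 1 the median of the 5 genes was -0.06 for H/R in simvastatin-treated rats and 0.17 for simvastatin in sham rats. The 5 genes did not shift as 1 block, as Sesn1 and Gadd45a show for ligation in sham rats.

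**Figure D1:**
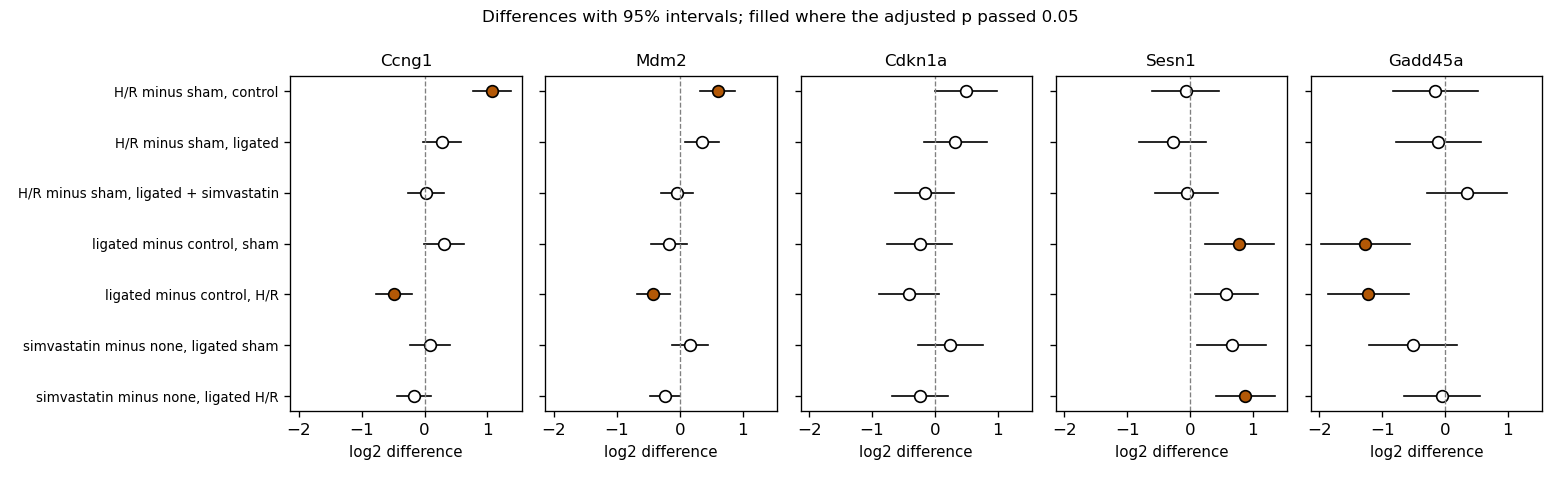
Log2 difference (x axis) of the 5 genes in the 7 comparisons (y axis), each with its 95% interval from limma and filled where the adjusted p was under 0.05. Ccng1 (1.07) and Mdm2 (0.60) are filled after H/R in control rats, and both also for ligation in H/R rats (-0.49 and -0.42). Gadd45a is filled in both ligation comparisons (-1.27 and -1.22). Sesn1 is filled for ligation in sham rats (0.79) and for simvastatin in H/R rats (0.88).

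The stretches just upstream of Ccng1, Mdm2 and Cdkn1a are shown because the first pair rose together after H/R in control rats and the third is the classical p53 target. Each is the 250 bases before the RefSeq gene start in GRCr8, 5′ to 3′ on the gene's strand, with capitals marking any perfect match to the p53 consensus decamer. They lie at chr10:25684877-25685126 (minus strand) for Ccng1, chr7:55200792-55201041 (minus strand) for Mdm2 and chr20:7150682-7150931 (plus strand) for Cdkn1a.
Ccng1: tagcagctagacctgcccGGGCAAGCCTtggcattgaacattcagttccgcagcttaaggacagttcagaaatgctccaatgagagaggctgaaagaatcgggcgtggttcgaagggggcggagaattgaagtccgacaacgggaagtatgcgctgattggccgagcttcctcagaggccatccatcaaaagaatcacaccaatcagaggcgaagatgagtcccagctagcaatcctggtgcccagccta
Mdm2: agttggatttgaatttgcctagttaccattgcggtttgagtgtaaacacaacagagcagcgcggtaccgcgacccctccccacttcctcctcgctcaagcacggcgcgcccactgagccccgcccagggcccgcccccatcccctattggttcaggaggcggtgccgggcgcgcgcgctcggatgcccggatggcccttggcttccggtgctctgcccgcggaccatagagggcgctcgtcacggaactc
Cdkn1a: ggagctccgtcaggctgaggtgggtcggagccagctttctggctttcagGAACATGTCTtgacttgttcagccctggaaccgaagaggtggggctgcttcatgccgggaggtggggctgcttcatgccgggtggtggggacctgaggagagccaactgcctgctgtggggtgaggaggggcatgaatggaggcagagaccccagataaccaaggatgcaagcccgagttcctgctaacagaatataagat
The decamer consensus equals its own reverse complement, so 1 scan covers both strands. A perfect decamer begins 232 bases before the start of Ccng1 and 201 bases before that of Cdkn1a. In both genes a second decamer adjoins it directly, and the tandem element departs from the consensus at 1 base in each. Such a tandem element with at most 1 mismatch occurs in 0.0598% of 33469 rat promoter windows of the same length, and 6.64% hold at least 1 perfect decamer. Sesn1 and Gadd45a also hold a perfect decamer, whereas the window of Mdm2 holds none and its nearest tandem element has 6 mismatches. These are matches of letters only. Mdm2 is known in mammals for p53 elements in its first intron, which this window does not cover.

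Ccng1, cyclin G1, had the smallest adjusted p of the 5 genes in any comparison, after H/R in control rats. In control H/R livers its log2 signals were 8.20 at the lowest, 8.79 at the median and 9.04 at the highest, against 7.71, 7.91, 7.32, 7.72 and 7.58 in control sham livers. All 6 H/R arrays lay above all 5 sham arrays. The difference was 1.07 ± 0.15 (SE), or 2.10-fold (limma, adjusted p = 7.2e-05). The call held in 11 of 11 fits that each left out 1 array, with differences of 0.99 to 1.18.

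In ligated H/R livers Ccng1 had 7.87 at the lowest, 8.29 at the median and 8.41 at the highest, against 8.05, 7.99, 7.99, 7.86 and 7.92 in ligated sham livers. All but 1 of the 6 H/R arrays lay above every sham array, but the difference of 0.27 ± 0.15 (95% interval -0.03 to 0.57) did not pass (adjusted p = 0.54). With simvastatin, Ccng1 spanned 7.80 to 8.22 after H/R, with a median of 8.10, against 7.29, 8.19, 8.19, 8.38 and 8.20 in sham livers. These groups overlapped, and their difference was 0.02 ± 0.14 (interval -0.27 to 0.30). The lowest of these values, 7.29, is from the array that stood apart, and without it the difference was -0.17 ± 0.12.

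The difference between the H/R effects on Ccng1, ligated minus control rats, was -0.80 ± 0.21 (interval -1.23 to -0.37), with an unadjusted p of 0.00057. Adjusted over all genes this did not pass (adjusted p = 0.55), so a difference between the H/R effects is not shown at the threshold used. Set side by side, Ccng1 in ligated H/R livers differed from control H/R livers by -0.49 ± 0.14 (adjusted p = 0.0051, overlapping ranges), whereas ligated sham livers differed from control sham livers by 0.31 ± 0.16 (adjusted p = 0.096). The ligation and H/R comparisons share these arrays. The order of group means ran from control H/R, the highest, through ligated H/R, simvastatin H/R, simvastatin sham and ligated sham to control sham. Neighbours in that order were farther apart than the larger of their SDs only at its ends, between control H/R and ligated H/R and between ligated sham and control sham.

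**Figure D2:**
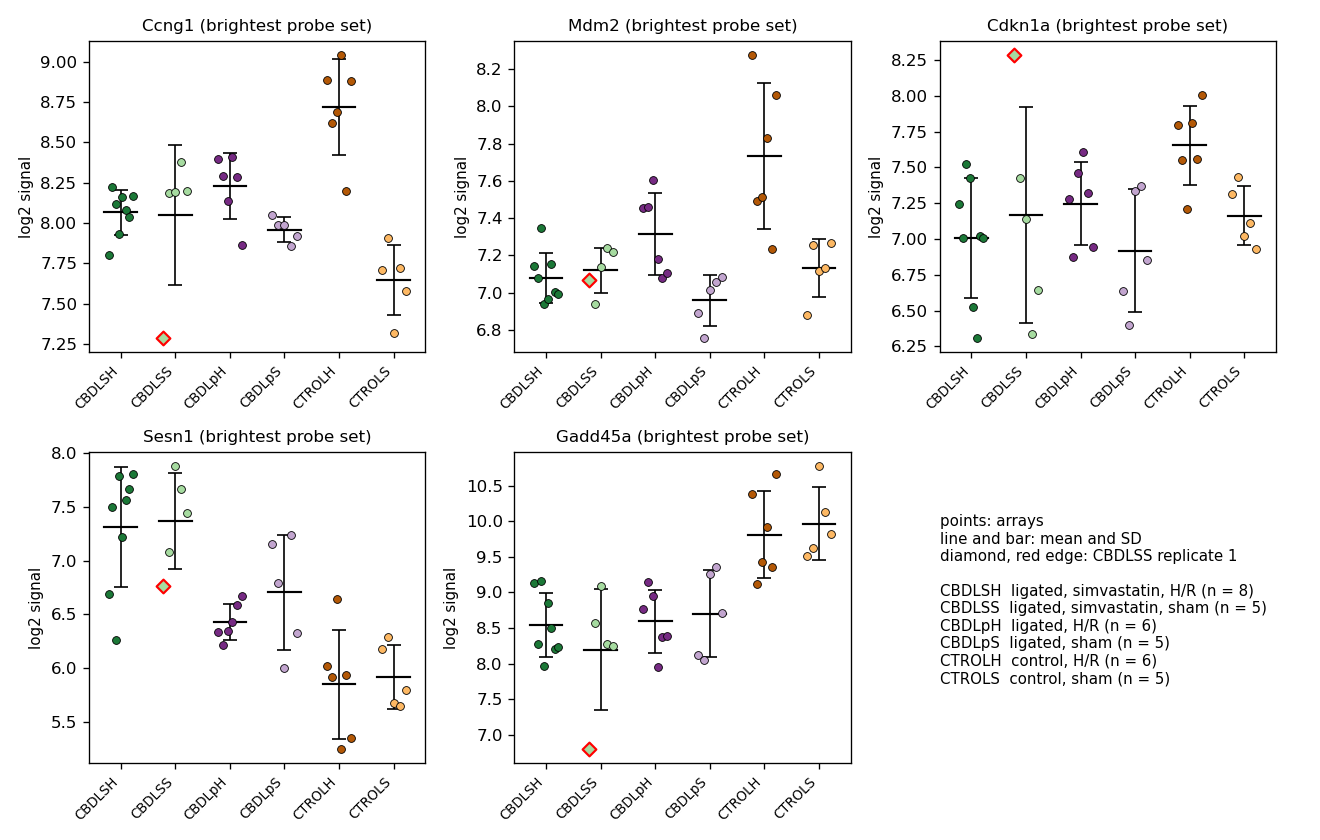
Log2 signal of each array (y axis) in the 6 groups (x axis) for the brightest probe set of the 5 genes, with the group mean and SD, and simvastatin sham replicate 1 as a red-edged diamond. Ccng1 in control H/R (8.20 to 9.04) lies above control sham (7.32 to 7.91), and Gadd45a in ligated sham (8.06 to 9.36) lies below control sham (9.51 to 10.77).

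Mdm2, the ubiquitin ligase that limits p53, also rose after H/R in control rats. Its brightest probe set, 1383288_PM_at, read 7.24 at the lowest, 7.67 at the median and 8.27 at the highest in control H/R livers, against 6.88, 7.26, 7.12, 7.14 and 7.27 in control sham livers. All but 1 of the H/R arrays lay above every sham array, and the lowest fell within the sham range. The difference was 0.60 ± 0.13, or 1.52-fold (limma, adjusted p = 0.022). The call was lost in 5 of 11 fits without 1 array, namely without control sham replicates 1 and 4 and control H/R replicates 1, 4 and 6 (0.49 to 0.60, adjusted p up to 0.079), and in a fit of these groups alone (adjusted p = 0.21).

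Mdm2 has 2 further probe sets, and all 3 passed for H/R in control rats, where 0.76% of 19069 probe sets with a single symbol passed. Probe set 1384427_PM_at spanned 6.91 to 7.65 with a median of 7.33 in control H/R livers, against 6.53, 6.76, 6.65, 6.77 and 6.88 in control sham livers. Probe set 1383485_PM_at spanned 5.20 to 6.02 with a median of 5.46 after H/R, against 4.58, 4.76, 4.96, 4.21 and 5.06 in sham livers. In neither did the groups overlap. The differences were 0.60 ± 0.15 (adjusted p = 0.038) and 0.86 ± 0.21 (adjusted p = 0.039). Probe set 1383485_PM_at is dim. Its control sham mean of 4.72 lies close to that of the brightest nonspecific probe, 4.51.

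In ligated H/R livers the brightest Mdm2 probe set had 7.08 at the lowest, 7.32 at the median and 7.60 at the highest, against 6.89, 6.76, 7.01, 7.06 and 7.08 in ligated sham livers. In 5 of 6 H/R arrays it exceeded all sham arrays, yet the difference of 0.35 ± 0.13 (interval 0.08 to 0.63) did not pass (adjusted p = 0.35). With simvastatin it spanned 6.94 to 7.35, median 7.04, after H/R, against 7.07, 6.94, 7.14, 7.24 and 7.22 in sham livers, a difference of -0.04 ± 0.13 (interval -0.30 to 0.21), or -0.06 ± 0.14 without the array that stood apart. The differences between these H/R effects were -0.25 ± 0.19 for ligated against control rats and -0.40 ± 0.18 for simvastatin against no simvastatin (adjusted p = 0.94 and 0.99), the second being -0.41 ± 0.19 without the array that stood apart.

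Ligation lowered Mdm2 in H/R livers, with a difference of -0.42 ± 0.13 (adjusted p = 0.0072), with 3 of 6 ligated arrays below all control arrays. Both other probe sets were lower as well, with differences of -0.50 ± 0.14 and -0.82 ± 0.20 (adjusted p = 0.0039 and 0.0011), against 42.1% of probe sets that passed in that comparison. In the dimmest of the 3 the groups did not overlap, with 4.39 to 5.13 in ligated and 5.20 to 6.02 in control H/R livers. Its means there were 4.75 and 5.57, not far above the brightest nonspecific probe at 4.00 and 4.59. In a fit of these groups alone the brightest probe set did not pass (adjusted p = 0.062). In sham livers the ligation difference was -0.17 ± 0.14 (interval -0.46 to 0.11). The order of means put control H/R first, then ligated H/R, control sham, simvastatin sham, simvastatin H/R and ligated sham, and only the first gap was larger than the larger SD of its neighbours.

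**Figure D3:**
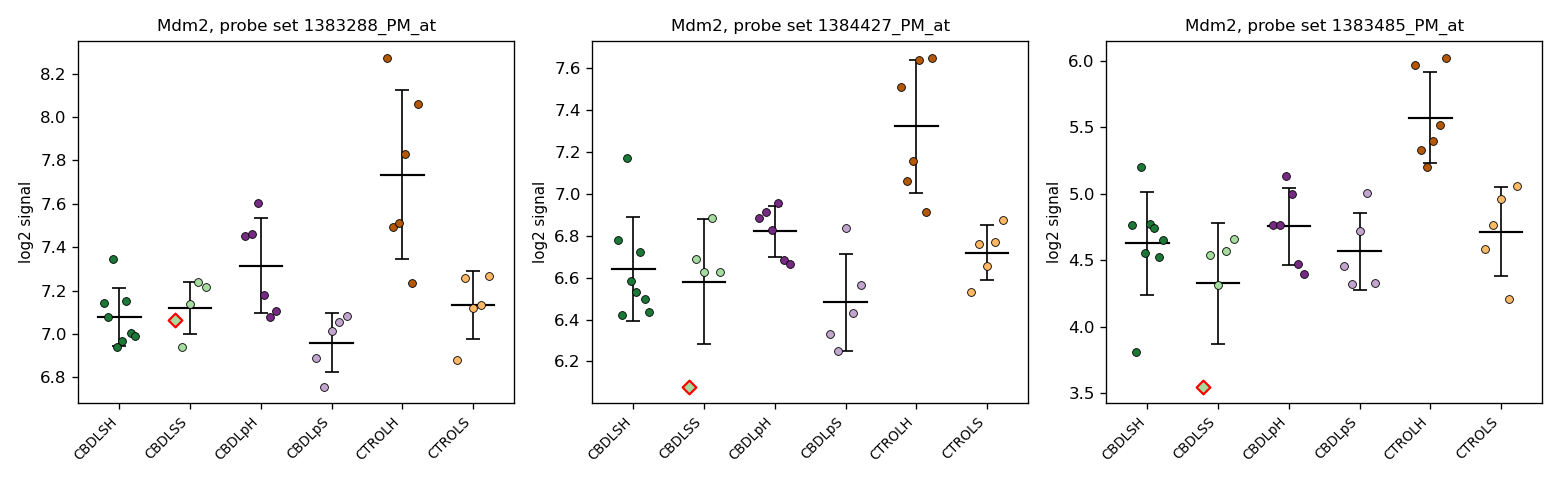
Log2 signal (y axis) of the 3 Mdm2 probe sets on each array, by group (x axis), with mean and SD, and simvastatin sham replicate 1 as a red-edged diamond. In each panel control H/R has the highest mean (7.73, 7.32 and 5.57), against 7.13, 6.72 and 4.72 in control sham, and levels are not comparable between panels.

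Heat shock genes moved with these H/R results. All 5 heat shock genes measured (Hspa1a, Hspb1, Dnajb1, Bag3 and Hsph1) rose in control H/R livers, and their mean signal spanned 8.99 to 11.73, against 7.38 to 8.02 in control sham livers. In ligated livers it spanned 8.60 to 10.08 after H/R, against 7.60 to 8.02 in sham, and 2 of the 5 genes rose. None of the 9 cholangiocyte, 10 stellate and matrix, 7 macrophage or 5 neutrophil markers passed after H/R in control rats, with 1, 1, 1 and 0 at an unadjusted p under 0.05. Mean neutrophil signals in control rats spanned 4.91 to 6.97 after H/R, against 4.34 to 6.29 in sham livers. After H/R in ligated rats none of these markers passed either, with 0, 2, 1 and 4 at an unadjusted p under 0.05. Mean neutrophil signals there spanned 5.28 to 8.26, against 5.31 to 5.49 in ligated sham livers. The part of the heat shock genes and of these markers in the results was not tested.

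Cdkn1a encodes p21, the cyclin-dependent kinase inhibitor through which p53 arrests the cell cycle. Its brighter probe set, 1388674_PM_at, had 7.21 at the lowest, 7.68 at the median and 8.00 at the highest in control H/R livers, against 7.31, 7.43, 7.02, 7.11 and 6.93 in control sham livers. The signal was above every sham array in 5 of 6 H/R arrays. The difference of 0.49 ± 0.24 (interval -0.0050 to 0.99) did not pass (adjusted p = 0.42). It was 0.33 ± 0.24 for H/R in ligated rats and -0.16 ± 0.23 in simvastatin-treated rats, and -0.24 ± 0.26 and -0.41 ± 0.23 for ligation in sham and H/R rats. None of these passed, with adjusted p between 0.15 and 0.95, although the ligation difference in H/R rats passed in a fit of these groups alone (adjusted p = 0.048). Without simvastatin sham replicate 1 the H/R difference in simvastatin-treated rats was 0.12 ± 0.21. Control H/R had the highest mean, and no other neighbours in the order of means were farther apart than the larger of their SDs.

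The 2 Cdkn1a probe sets disagreed under simvastatin. The dimmer one, 1387391_PM_at, had 6.69, 8.71, 8.19, 7.39 and 7.66 in simvastatin sham livers, against 5.97, 5.61, 6.32, 6.39 and 5.91 in ligated sham livers. Every simvastatin array was above every ligated array. The difference was 1.69 ± 0.35, or 3.22-fold (limma over all 19069 probe sets, adjusted p = 0.0096; background 0.776%), and it held in 10 of 10 fits without 1 array (1.44 to 1.95). In the same livers the brighter probe set had 8.28, 7.42, 7.14, 6.34 and 6.64 with simvastatin, against 6.64, 6.40, 7.33, 7.37 and 6.85 without it. These ranges overlapped, and the difference was 0.25 ± 0.26 (adjusted p = 0.77).

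In H/R livers the dimmer Cdkn1a probe set read 6.28 at the lowest, 7.84 at the median and 8.65 at the highest with simvastatin, against 6.12, 6.47 and 7.04 in ligated livers without it. The signal was above the highest ligated array in 6 of the 8 simvastatin arrays, the exceptions being replicates 5 and 7. The difference was 1.14 ± 0.30, or 2.20-fold (adjusted p = 0.049; background 1.31%). This call held in only 3 of 14 fits without 1 array, namely without ligated H/R replicate 5 and without simvastatin H/R replicates 5 and 7, and the difference ranged from 0.99 to 1.33. The brighter probe set had 6.31, 7.01 and 7.53 at the lowest, median and highest with simvastatin, against 6.87, 7.30 and 7.61 without it, a difference of -0.24 ± 0.22 (adjusted p = 0.69).

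The disagreement itself was tested as the within-array difference, dimmer minus brighter probe set, over 5630 such pairs of probe sets. It averaged 0.61 ± 0.69 (SD, n = 8) in simvastatin H/R and 0.56 ± 1.21 (n = 5) in simvastatin sham livers, against -0.77 ± 0.38 (n = 6) in ligated H/R and -0.88 ± 0.15 (n = 5) in ligated sham livers. In control rats it was -0.62 ± 0.39 (n = 6) in H/R and -0.67 ± 0.22 (n = 5) in sham livers. Simvastatin shifted it by 1.38 ± 0.31 in H/R livers (limma, adjusted p = 0.011; 1.49% of pairs passed), a call that held in 14 of 14 fits without 1 array. In sham livers the shift was 1.44 ± 0.36 (adjusted p = 0.037; 0.995% of pairs passed).

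The sham call depended on single arrays. It held in 1 of 10 fits, the one without simvastatin sham replicate 1, where the shift was 1.98 (adjusted p = 3.8e-05), and adjusted p reached 0.095 in the others. That array had the highest brighter and the lowest dimmer Cdkn1a signal of its group, 8.28 and 6.69. Without it the difference of the dimmer probe set was 1.95 ± 0.36 (adjusted p = 0.0019) and that of the brighter one -0.03 ± 0.23 (adjusted p = 0.98).

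**Figure D4:**
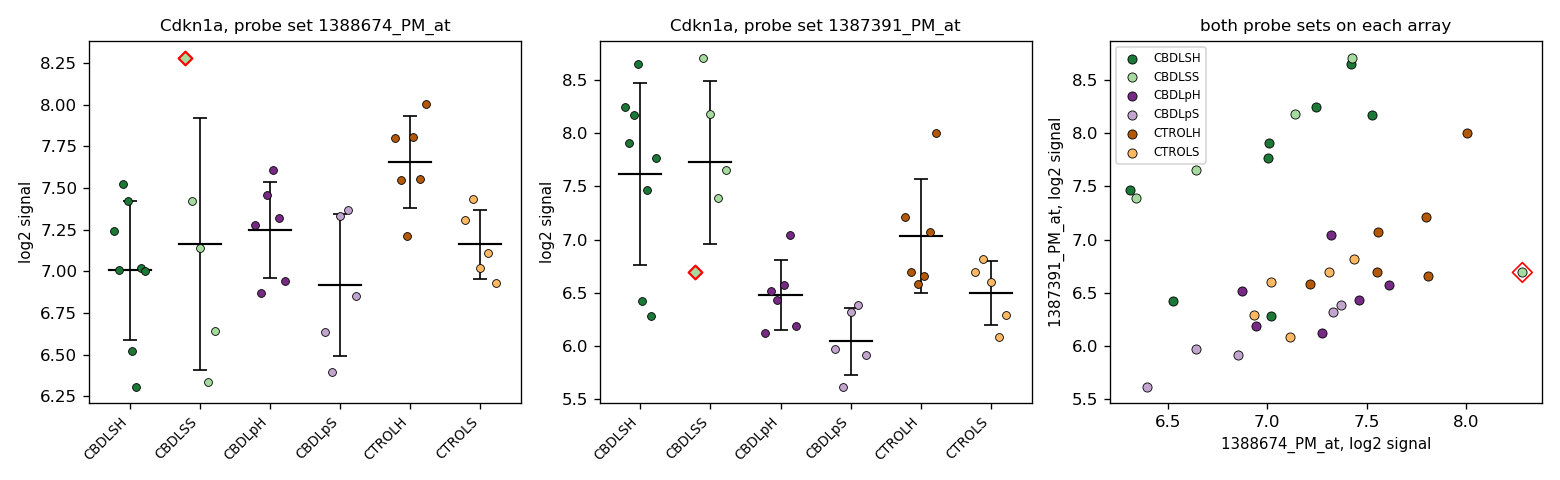
Log2 signal (y axis) of the Cdkn1a probe sets by group (left and middle panels, with mean and SD) and the dimmer against the brighter one on each array (right panel), with simvastatin sham replicate 1 edged in red. In the middle panel the simvastatin means are 7.62 (H/R) and 7.73 (sham), against 6.48 and 6.04 in ligated livers without the drug, while in the left panel they are 7.01 and 7.17, against 7.25 and 6.92.

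Title number endings, RNA measures and marker genes moved with the simvastatin comparison. Among arrays ending in 12, the dimmer probe set had 8.25 and 8.65 in simvastatin H/R livers, against 6.12 and 6.43 in ligated H/R livers, and the brighter one had 7.24 and 7.42, against 7.28 and 7.46. These values come from 2 arrays in each group, and the remaining arrays of these groups share no ending. With the ending as a block the simvastatin difference of the dimmer probe set in H/R livers was 2.18 ± 0.55 and did not pass (adjusted p = 0.33). The actin 3′ minus 5′ signal was 1.41 to 1.97 in simvastatin H/R livers, against 1.63 to 2.28 in ligated H/R livers, and its part in the disagreement was not tested. The brightest nonspecific probe was 2.71 to 3.65 in simvastatin H/R livers, against 3.59 to 4.43 in ligated H/R livers, and its part was not tested either. In the same comparison, which also gave the Sesn1 call below, mean stellate and matrix signals were 7.49 to 8.31, against 7.52 to 8.50, with 1 of 10 markers lower and 5 at an unadjusted p under 0.05. Mean heat shock signals were 7.86 to 9.50, against 8.60 to 10.08, with 1 of 5 lower and 3 at such a p. Mean neutrophil signals were 5.05 to 6.49, against 5.28 to 8.26, with 0 of 5 passing and 3 at such a p. For proliferation markers the means were 4.09 to 5.61, against 4.21 to 6.48, with 1 of 6 lower and 5 at such a p. Endothelial means were 6.16 to 7.02, against 6.23 to 7.21, with 0 of 5 passing and 3 at such a p. Hepatocyte, cholangiocyte, macrophage and lymphocyte markers had 0 passing, with 1, 0, 1 and 1 at such a p. Their part in the Cdkn1a and Sesn1 results was not tested. Which transcripts each probe set detects was not analysed here.

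Sesn1, sestrin 1, rose with ligation in sham livers and with simvastatin in H/R livers. Its brightest probe set, 1372248_PM_at, had 6.26 at the lowest, 7.53 at the median and 7.81 at the highest in simvastatin H/R livers, against 6.21, 6.39 and 6.67 in ligated H/R livers. All simvastatin arrays except replicate 3 were above every ligated array. The difference was 0.88 ± 0.23, or 1.84-fold (limma, adjusted p = 0.046). The call was lost in 12 of 14 fits without 1 array and held only without simvastatin H/R replicates 1 and 3, while the difference stayed between 0.81 and 1.03. Within title ending 12 the values were 6.69 and 7.78 with simvastatin, against 6.33 and 6.34 without it. With the title ending as a block the difference was 0.90 ± 0.45 and did not pass (adjusted p = 0.82), nor did it in a fit of these groups alone (adjusted p = 0.063).

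In simvastatin sham livers Sesn1 had 6.76, 7.08, 7.88, 7.67 and 7.44, against 7.16, 6.79, 6.00, 7.24 and 6.33 in ligated sham livers. The ranges overlapped, and the difference of 0.66 ± 0.27 (interval 0.11 to 1.21) did not pass (adjusted p = 0.34). Without simvastatin sham replicate 1 it was 0.81 ± 0.28 (adjusted p = 0.18). Ligated sham livers in turn exceeded control sham livers, which had 6.18, 6.29, 5.68, 5.64 and 5.80, by 0.79 ± 0.27, or 1.72-fold (adjusted p = 0.017). All but 1 of the ligated arrays were above every control array. That call was lost without ligated sham replicate 1 (0.67, adjusted p = 0.056) or 4 (0.65, adjusted p = 0.063).

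In H/R livers the ligation difference of Sesn1 was 0.58 ± 0.25 (adjusted p = 0.054), where control H/R livers spanned 5.25 to 6.64 with a median of 5.92. Without control H/R replicate 3, the highest of that group, it was 0.74 (adjusted p = 0.015), and in a fit of these groups alone it passed as well (adjusted p = 0.029). H/R gave differences of -0.07 ± 0.26 in control, -0.27 ± 0.26 in ligated and -0.05 ± 0.24 in simvastatin-treated rats, where it was -0.20 ± 0.26 without simvastatin sham replicate 1, and none passed. The order of means was simvastatin sham, simvastatin H/R, ligated sham, ligated H/R, control sham and control H/R. Gaps larger than the larger SD stood between simvastatin H/R and ligated sham and between ligated H/R and control sham.

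The dimmer Sesn1 probe set, 1395809_PM_at, passed neither for ligation in sham livers, where 42.8% of probe sets passed, nor for simvastatin in H/R livers, where 1.31% did. It averaged 4.81 ± 0.38 (SD, n = 8) in simvastatin H/R and 4.63 ± 0.34 (n = 5) in simvastatin sham livers, against 4.29 ± 0.36 (n = 6) in ligated H/R and 4.23 ± 0.30 (n = 5) in ligated sham livers. In both control groups its mean was not above that of the brightest nonspecific probe. Its simvastatin difference in H/R livers was 0.52 ± 0.20 (adjusted p = 0.21). Measured against the brighter probe set of the same array this was -0.36 ± 0.25 (adjusted p = 0.57), so the probe sets are not shown to differ there. For ligation no fold is given, because the control level has only a bound.

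Gadd45a, a growth arrest and DNA damage inducible protein, was lower in ligated than in control livers. It had 8.12, 8.06, 9.27, 9.36 and 8.71 in ligated sham livers, against 9.51, 9.62, 10.77, 10.13 and 9.82 in control sham livers. The groups did not overlap. The difference was -1.27 ± 0.35, or 2.41-fold lower (limma, adjusted p = 0.003), and the call held in 10 of 10 fits without 1 array. In H/R livers Gadd45a had 7.95, 8.57 and 9.15 at the lowest, median and highest after ligation, against 9.12, 9.68 and 10.66 in controls. It was below every control array in 5 of 6 ligated arrays, and the difference was -1.22 ± 0.32, or 2.33-fold lower (adjusted p = 0.0019; 12 of 12 fits).

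Neither H/R nor simvastatin changed Gadd45a at the threshold. H/R gave -0.16 ± 0.33 in control, -0.11 ± 0.33 in ligated and 0.35 ± 0.31 in simvastatin-treated rats, and simvastatin gave -0.51 ± 0.35 in sham and -0.05 ± 0.30 in H/R livers, all with adjusted p of 0.63 or more. Without simvastatin sham replicate 1, at 6.80 the lowest array of all 35, the sham difference was -0.16 ± 0.32 and the H/R difference in simvastatin-treated rats 0.00058 ± 0.30. With all arrays the 95% interval of the sham difference was -1.21 to 0.19. The only gap in the order of means larger than the larger SD separated the control groups, the higher ones, from the ligated groups.

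Several marker lists moved with the ligation comparisons, where 47.6% of all genes passed in sham and 47% in H/R livers. Mean cholangiocyte marker signals were 8.04 to 9.19 in ligated sham and 8.08 to 9.04 in ligated H/R livers, against 4.20 to 5.18 in control sham and 4.43 to 5.65 in control H/R livers. In both comparisons 8 of 9 measured cholangiocyte markers rose, as did 10 of 10 stellate and matrix markers in sham livers and 9 of 10 in H/R livers. Mean hepatocyte marker signals were 11.72 to 12.16 in ligated sham livers, against 12.21 to 12.29 in control sham livers, and 3 of 9 fell. In H/R livers they were 11.38 to 12.05 after ligation, against 12.10 to 12.35 in controls, and 5 of 9 fell. With 9 genes these hepatocyte counts do not stand apart from the shares of all genes. Of 6 proliferation markers 5 rose in both comparisons, and of 7 macrophage markers 4 rose and 1 fell in sham livers and 5 rose in H/R livers. Other lists moved less or in both directions. Of 5 neutrophil markers 0 passed in sham livers and 1 rose in H/R livers. Of 6 lymphocyte markers 2 rose and 1 fell in sham livers, and 2 rose in H/R livers. Of 5 endothelial markers 1 rose and 2 fell in sham livers, and 1 rose in H/R livers. Heat shock signals in H/R livers, where Ccng1 and Mdm2 were lower with ligation, were 8.60 to 10.08 in ligated rats, against 8.99 to 11.73 in control rats, and 3 of 5 of these genes fell. Their part in the Gadd45a, Sesn1, Ccng1 and Mdm2 differences was not tested.

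Between rats of the same group, Mdm2 and Gadd45a varied together when all groups were pooled, but not in every group. Over deviations from the group means on 35 arrays, Pearson's r was 0.58 (permutation p = 0.00027 within groups, adjusted p = 0.0027 over 10 pairs) and Spearman's rho 0.62 (adjusted p = 0.0027). It was 0.57 without the 2 arrays farthest from the median of Mdm2 and 0.63 without simvastatin sham replicate 1. Among the 20 arrays with title ending 13 r was 0.62, and among the 6 with ending 12 it was 0.07. Those 6 include simvastatin sham replicate 1, whose deviations were -0.05 for Mdm2 and -1.39 for Gadd45a. For ending 12 r was not calculated without that array, so no absence of a link is read from the 0.07. Single groups gave r between 0.09 (simvastatin sham) and 0.90 (control H/R), with 0.13 in control sham livers. The simvastatin sham value includes replicate 1 of that group and was not calculated without it. How many of all genes vary as closely with Mdm2 was not counted. The part of technical variation shared by genes on an array was not tested. The other 9 pairs did not pass. Ccng1 and Mdm2, which rose together after H/R in control rats, had r = 0.37 and rho = 0.34 within groups (permutation adjusted p = 0.20 and 0.21).

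Among 9374 genes brighter on average than the 30th percentile, those whose deviations over the 35 arrays were most like each gene are given as a description. They were Itgb1bp1 (r = 0.76) and Erh (0.76) for Ccng1, Swt1 (0.81) and Edrf1 (0.78) for Mdm2, Usp36 (0.82) and Eif5b (0.81) for Cdkn1a, Gli4 (0.74) and Slc25a51 (0.73) for Sesn1, and Ccnl1 (0.81) and Spry1 (0.79) for Gadd45a. The likeness of the Ccng1 pair rests largely on 1 array. Without simvastatin sham replicate 1 their r was 0.53 and 0.55, while for the pairs of the other genes r lay between 0.70 and 0.81.

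Of 57 further regulators and targets of the p53 pathway, 47 were measured. After H/R in control rats 1 of them passed, downward (2.13%, against 0.856% of all genes), with 4 at an unadjusted p under 0.05. It was Ccnd1, cyclin D1, which drives entry into the cell cycle, at 6.65 to 7.22 in control H/R livers, against 7.58 to 8.39 in control sham livers (-0.88 ± 0.22, limma, adjusted p = 0.041). Among the targets with a role in apoptosis, Phlda3 differed by 0.57 ± 0.21 (adjusted p = 0.23), Aen by 0.37 ± 0.20 (adjusted p = 0.46) and Bbc3 by -0.06 ± 0.17 (adjusted p = 0.94). None of the 47 passed after H/R in ligated or in simvastatin-treated rats, or for simvastatin in sham livers. At an unadjusted p under 0.05 were 3, 6 and 5 of the 47, against 1401, 725 and 1453 of all 13439 genes. Without simvastatin sham replicate 1 none of the 47 passed in the comparisons that use it. At such a p were 5 after H/R in simvastatin-treated rats and 6 for simvastatin in sham livers, against 490 and 1665 of all genes. In simvastatin H/R livers 1 of 47 fell (2.13%, against 1.35% of all genes that passed), Gtse1, which restrains p53 late in the cell cycle, at 3.47 to 4.09, against 3.95 to 5.17 in ligated H/R livers (-0.72 ± 0.19, adjusted p = 0.043). Gtse1 is dim in both groups, with means of 3.77 and 4.49 near the brightest nonspecific probe at 3.32 and 4.00. That probe moved in the same direction, at 2.71 to 3.65 on simvastatin H/R arrays, against 3.59 to 4.43 on ligated H/R arrays. A fall of Gtse1 apart from this technical level is therefore not shown, and the part of that level was not tested. Mean signals of 6 proliferation markers were 4.09 to 5.61 in simvastatin H/R livers, against 4.21 to 6.48 in ligated H/R livers, and 1 of 6 fell. Their part was not tested.

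Ligation changed the wider pathway in both directions at about the rate of all genes. In sham livers 13 of 47 rose and 7 fell (42.6% in all, against 47.6% of all genes), and in H/R livers 14 rose and 11 fell (53.2%, against 47%). The genes counted as rising include Ccne2, whose mean in both control groups was below the brightest nonspecific probe. Against that probe its bound was 0.93-fold in sham and 0.99-fold in H/R livers, so no rise of Ccne2 is shown. Among cell cycle genes Ccng2, cyclin G2, rose by 1.48 ± 0.19 in sham and 1.24 ± 0.17 in H/R livers, and Ccnd1 by 1.46 ± 0.23 and 2.11 ± 0.21. Among apoptosis genes Apaf1, the core of the apoptosome, rose by 1.28 ± 0.21 and 1.20 ± 0.20, whereas Aen, an apoptosis-enhancing nuclease, had differences of -1.24 ± 0.20 and -1.18 ± 0.19. All 8 of these values had adjusted p of 9.2e-06 or less. Sestrin relatives of Sesn1 split, with Sesn2 at -0.70 ± 0.25 (adjusted p = 0.022) and Sesn3 at least 1.52-fold higher (adjusted p = 0.00057) in sham livers. Sesn3 is given as a bound against the brightest nonspecific probe, which its mean did not exceed in control sham livers.

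A separate list held relatives of the 7 p53 target genes named at the start, and 7 of 7 relatives were measured. With ligation 4 rose and 2 fell in sham livers, where 47.6% of all genes passed, and 4 rose and 1 fell in H/R livers, where 47% passed. Cdkn1c, counted as rising, had control means of 3.63 (sham) and 3.67 (H/R), below the brightest nonspecific probe at 4.51 and 4.59. Its mean in ligated H/R livers was 4.60, close to that 4.59, so no rise of Cdkn1c is shown there. With 7 genes nothing about the relatives is read from these counts. Cdkn1b (p27), a kinase inhibitor like p21, rose by 1.20 ± 0.15 in sham and 0.97 ± 0.14 in H/R livers (adjusted p = 9.3e-08 and 8.2e-07). Btg3, an antiproliferative relative of Btg2, rose by 1.49 ± 0.21 in sham livers (adjusted p = 5.1e-07). None of the 7 passed in any H/R or simvastatin comparison, with 0 to 3 at an unadjusted p under 0.05. None passed without simvastatin sham replicate 1 either, with 0 after H/R in simvastatin-treated rats and 1 for simvastatin in sham livers at such a p.

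**Figure D5:**
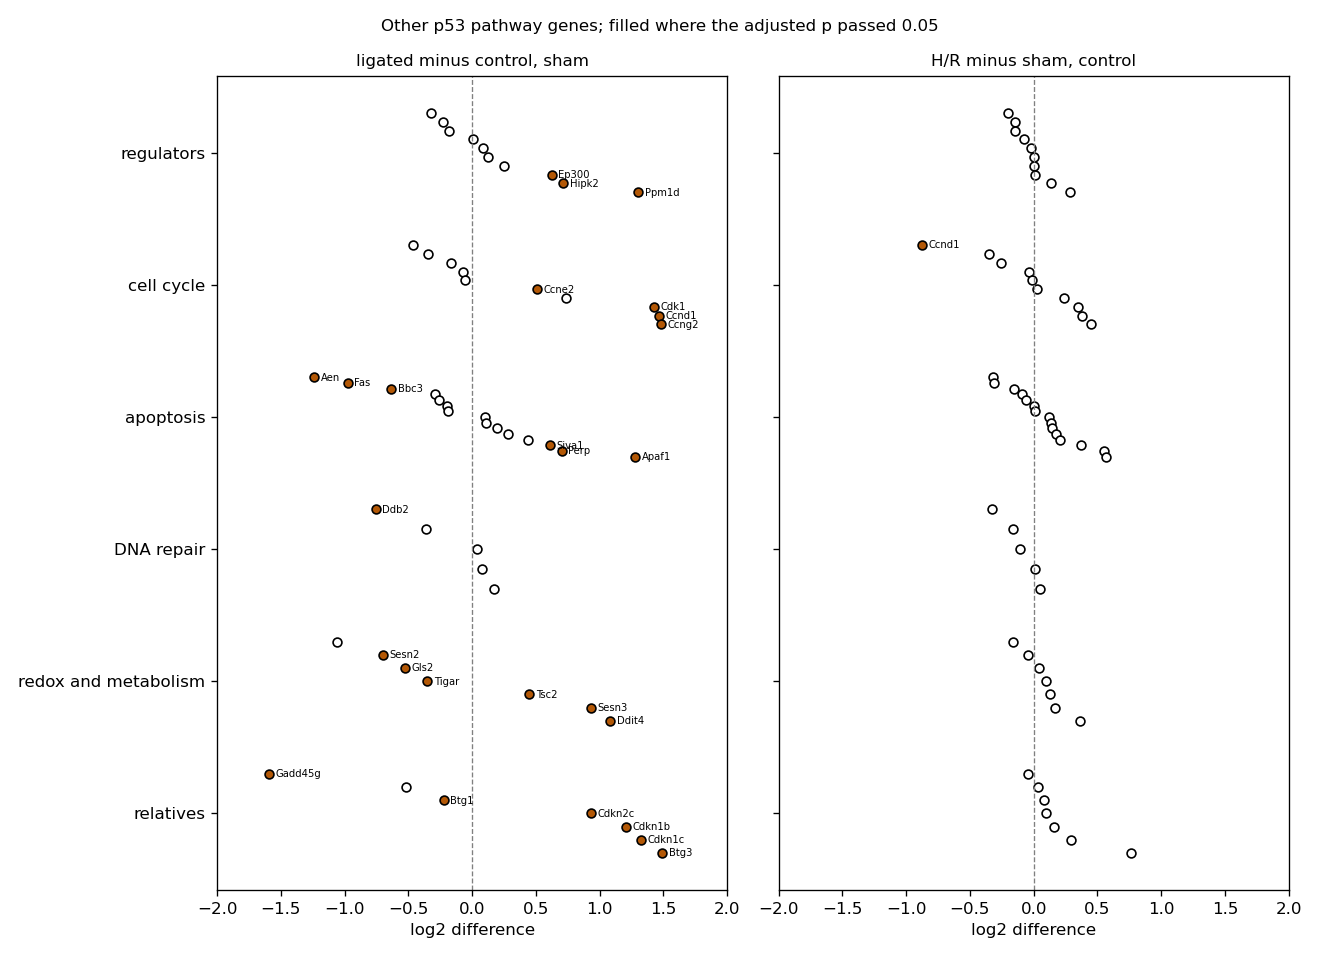
Log2 differences (x axis) of 47 other p53 pathway genes and 7 relatives of the target genes, by role (rows), for ligation in sham rats (left) and H/R in control rats (right), filled and named where the adjusted p was under 0.05. In the left panel 20 pathway genes and 6 relatives are filled, on both sides of 0, and the right panel has 1, Ccnd1 at -0.88. Filling follows the adjusted p alone, also for Ccne2, Sesn3 and Cdkn1c, whose control sham means were below the brightest nonspecific probe.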

How the data were processed

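The authors deposited a table of normalized log2 signals per probe set, made from biotin-labelled liver RNA on Affymetrix arrays of a single colour, per the labels. How they normalized is not given in the sources used. That the unit is log2 was judged from the range of 1.51 to 13.79. Of 31139 probe sets 19069 carried 1 symbol, 572 several and 11498 none in the platform annotation used, and each gene took its brightest single-symbol probe set. No depth applies to arrays, and precision rests on 5 to 8 arrays per group. Groups come from the treatment group label, and replicate numbers follow sample order.

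A linear model with the 6 group means was fitted to the 35 arrays with limma 3.58.1 in R 4.3.3 (lmFit, eBayes), with Benjamini-Hochberg adjustment over all 13439 genes in each comparison and a threshold of 0.05. Other probe sets were tested in a fit of all 19069, and their disagreement in a fit of within-array differences of 5630 probe sets from the brightest of the same gene. The 95% intervals come from the limma fit. The nonspecific level is the brightest nonspecific control probe, averaged over a group. Pairs of genes were tested with 100000 permutations within groups (Python 3.11.15). The fit was tested on simulated data.

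The members and gene lists were chosen with earlier results of these data known. Of the wider list, up to 4 genes of smallest p past the threshold were named per comparison, counted with and without the relatives, and the 2 genes most like each member. Phlda3, Aen and Bbc3 in control rats, and Sesn2 and Sesn3, were named after their values were seen. Alternatives were a fit of only the groups compared, array weights, trend and robust moderation, only genes brighter than the 30th percentile, repeated quantile normalization, centring on array medians, the mean of probe sets, the title number ending as a block, and leaving out each array. The other probe sets, their disagreement and the fits without simvastatin sham replicate 1 as the array that stands apart were added after seeing the data. Bax, Btg2 and 10 listed pathway genes were not analysed here.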

Additional observations from a re-analysis of the deposited data

Results flagged for a closer look

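Ccng1 in simvastatin sham replicate 1 was 7.29, far below the nearest array of its group at 8.19 (gap over range 0.822, limit 0.71). It is the array with the high GAPDH and actin 3′ minus 5′ signals, and the Ccng1 simvastatin difference in sham livers was 0.09 ± 0.16 with it and 0.28 ± 0.13 without it (adjusted p = 0.88 and 0.38). Sesn1 on its dimmer probe set was 4.59 in control H/R replicate 1, above the nearest array at 4.31 (gap over range 0.811, limit 0.625), in a group whose mean was not above the brightest nonspecific probe. These were 2 of 54 groups of values examined, and chance alone marks about 5% of such groups.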

How the results depend on the processing

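Ccng1 after H/R in control rats and Gadd45a in both ligation comparisons kept their calls under all alternatives run. The number of the 5 genes past the threshold was 1 after H/R in control rats and 0 for simvastatin in H/R livers when only the groups compared were fitted. For ligation in sham livers it was 1 under repeated quantile normalization and under the mean of probe sets, and for simvastatin in H/R livers it was 0 with the title number ending as a block. Leaving out each array gave 1 to 2 genes after H/R in control rats, 1 to 2 for ligation in sham livers, 3 to 4 for ligation in H/R livers and 0 to 1 for simvastatin in H/R livers. Cdkn1a for simvastatin in H/R livers changed sign with its other probe set (1.14, against -0.24), while 41 of 1001 member values changed sign with neither value past the threshold. The dimmer Cdkn1a probe set lost its H/R call with trend and robust options, repeated quantile normalization and centring (adjusted p = 0.056 to 0.061) and, fitting only the groups compared, its calls in H/R and sham livers (adjusted p = 0.10 and 0.08). Sesn1 for ligation in sham livers also lost its call under quantile normalization (0.60), centring (0.60) and the mean of probe sets (0.44). Centring raised Cdkn1a for ligation in H/R livers (-0.56, adjusted p = 0.05) and Mdm2 for ligation in sham livers (-0.36, adjusted p = 0.029) past the threshold. The cause of these changes was not tested.

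Counts over all genes moved by over 1.5 times in places. Fitting only the groups compared called 11 genes in place of 115 after H/R in control rats, 3 in place of 18 in ligated rats and 22 in place of 105 for simvastatin in sham livers. Array weights called 43 and 6 after H/R in ligated and simvastatin-treated rats, 397 for simvastatin in sham livers and 744 in place of 182 in H/R livers. The block called 4 after H/R in ligated rats and 13 for simvastatin in H/R livers. The tests of a difference between H/R effects called 0 to 3 in place of 1. Leaving out an array gave 50 to 190 after H/R in control rats, 2 to 45 in ligated rats, 66 to 168 for simvastatin in sham and 100 to 342 in H/R livers, and 0 to 5 for the ligated against control difference. Centring gave a median of all genes for ligation of -0.23 in place of -0.04 in sham and -0.19 in place of -0.03 in H/R livers, and its split of higher and lower calls in sham livers was 2594 to 5128, against 3394 to 3008 as deposited. In H/R livers it was 2611 to 4795, against 3314 to 2996. For simvastatin in H/R livers the split was 95 to 85 after quantile normalization, against 114 to 68. No paired analysis was possible because the replicate numbers follow sample order and the labels give no number shared between groups. Dim probe sets near the nonspecific level, such as 1395809_PM_at for Sesn1 and 1383485_PM_at for Mdm2, limit what can be detected.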
